A study of Mus musculus with 8 samples.

Results

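Transcripts of 8 enzymes that make, convert or inactivate steroid hormones were followed in mouse liver by RNA sequencing. The enzymes were chosen by gene symbol (*Hsd3b2*, *Hsd3b3*, *Hsd3b5*, *Srd5a1*, *Hsd11b1*, *Hsd17b2*, *Hsd17b6* and *Hsd17b13*), and all 8 were found among the 19267 genes of the count table and passed the filter on low counts. These genes and the gene lists below were chosen with earlier results of these data known. The shares of all genes set beside their counts are therefore descriptive and not a test. Male C57BL/6 mice aged 6 weeks received a Lieber-DeCarli liquid diet for 21 days and were sampled at 9 weeks. Its EtOH form contained alcohol at 5% (w/v), and the Control form replaced those calories with maltose dextrin. *Elf4-/-* denotes Elf4 fl/fl mice with Villin-Cre, in which the gene of the transcription factor *Elf4* is deleted from intestinal epithelium, and WT denotes control mice that per the study's methods carry the Cre transgene too. The liver keeps *Elf4*, so its transcript (0.895 to 4.51 CPM over the libraries, where CPM is counts scaled to a common library size by TMM) does not check the genotype labels. Each of the 4 groups, named by genotype and diet (WT-EtOH, for example), had 2 libraries, with 6171051 to 9157362 counts per library. Whether the 2 libraries of a group came from separate mice or from pooled livers is not given in the sources used here, so the p-values measure the spread between these libraries only.

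Steroids circulate as active hormones, precursors and inactive forms, and the liver is a main site where they are interconverted and cleared. Enzymes of the 3β-hydroxysteroid dehydrogenase family (*Hsd3b* genes) oxidise or reduce the hydroxyl or keto group at carbon 3, and steroid 5α-reductase (*Srd5a1*) reduces the double bond of testosterone, progesterone and corticosteroids. Enzymes named 17β-hydroxysteroid dehydrogenases (*Hsd17b* genes) act at carbon 17 of androgens and estrogens, although several members work on retinoids or lipids as well. 11β-hydroxysteroid dehydrogenase type 1 (*Hsd11b1*) regenerates the active glucocorticoid from its inactive keto form. In rodents, many of these liver genes differ between the sexes under the control of the growth hormone secretion pattern.

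Over WT and *Elf4-/-* livers, 6 of the 8 transcripts were called lower under EtOH, where 13.8% of all genes were, and *Hsd11b1* and *Hsd17b13* were not called changed. *Hsd3b5* went from 96.6 to 197 CPM in the control libraries to at most 1.59 CPM under EtOH. *Hsd17b6*, *Hsd3b2*, *Srd5a1*, *Hsd3b3* and *Hsd17b2* fell by 1.16 to 1.95 on the log2 scale. In the *Elf4-/-*-EtOH group the 2 libraries lay far apart for *Hsd3b2*, *Hsd17b6*, *Hsd3b3* and *Srd5a1*.

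The *Hsd3b* genes are shown by sequence because their transcripts are alike while their diet responses differed in size. On GRCm38 (mm10, GENCODE annotation), *Hsd3b5* lies at chr3:98618634-98630252, *Hsd3b2* at chr3:98709255-98724543 and *Hsd3b3* at chr3:98741523-98763127, all protein coding and on the minus strand. The coding sequences of *Hsd3b2* and *Hsd3b3* were 95.1% identical, whereas *Hsd3b5* shared 80.5% of aligned positions with *Hsd3b2* and 80.2% with *Hsd3b3*. The first 120 coding bases follow, from the annotated start codon, 5′ to 3′, with capitals where *Hsd3b2* (23 bases) or *Hsd3b3* (24 bases) differs from *Hsd3b5*.
Hsd3b2: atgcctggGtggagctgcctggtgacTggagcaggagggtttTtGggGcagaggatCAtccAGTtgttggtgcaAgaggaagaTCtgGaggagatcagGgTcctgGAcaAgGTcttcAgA
Hsd3b3: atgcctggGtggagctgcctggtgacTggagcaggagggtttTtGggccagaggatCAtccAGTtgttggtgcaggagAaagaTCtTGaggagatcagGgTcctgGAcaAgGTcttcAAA
Hsd3b5: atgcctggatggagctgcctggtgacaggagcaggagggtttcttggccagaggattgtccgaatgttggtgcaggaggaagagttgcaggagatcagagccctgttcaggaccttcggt

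How far reads could cross between these genes was gauged from stretches of the annotated transcripts. Of all 150-base stretches, the length of 1 read, 2.16% of *Hsd3b2*, 1.33% of *Hsd3b3* and 1.21% of *Hsd3b5* also occurred in another *Hsd3b* gene, and for 50-base stretches the shares were 11.9%, 6.64% and 18.7%. For *Hsd3b5* nearly all of those 50-base stretches were shared with *Hsd3b4* (18.2% of its stretches), whose coding sequence is 95.2% identical. *Hsd3b4* has no entry in the count table, and neither have *Hsd3b1* and *Hsd3b6*. *Hsd3b6* held 6.41% of the 50-base stretches of *Hsd3b2* and 3.45% of those of *Hsd3b3*. The 3 genes overlap *Zfp697* on the opposite strand, with 0, 99 and 281 shared exonic bases for *Hsd3b5*, *Hsd3b2* and *Hsd3b3*. The strand setting of the counting is not given in the sources used here.

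The promoters of *Hsd3b3* and *Hsd3b5* resembled each other over much of their length. RefSeq promoter sequence (GRCm38.p6) was available for 7 of the 8 genes, and *Hsd17b2* had no entry. The 250 bases before the RefSeq start are at chr3:98763129-98763378 for *Hsd3b3* (the first of 2 starts) and chr3:98645535-98645784 for *Hsd3b5*, both on the minus strand, and the *Hsd3b5* start lies upstream of the GENCODE gene given above. In the best local alignment 151 of 202 columns (74.8%) were identical, from 199 bases before the *Hsd3b3* start and from 250 bases before the *Hsd3b5* start. The aligned stretches are shown 5′ to 3′ without gaps, with capitals where they are identical.
Hsd3b3 promoter: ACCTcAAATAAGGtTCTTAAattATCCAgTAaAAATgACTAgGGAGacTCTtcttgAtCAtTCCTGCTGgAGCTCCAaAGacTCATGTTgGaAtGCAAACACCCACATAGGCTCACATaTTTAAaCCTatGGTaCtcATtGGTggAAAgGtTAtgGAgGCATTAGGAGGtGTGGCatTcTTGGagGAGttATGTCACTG
Hsd3b5 promoter: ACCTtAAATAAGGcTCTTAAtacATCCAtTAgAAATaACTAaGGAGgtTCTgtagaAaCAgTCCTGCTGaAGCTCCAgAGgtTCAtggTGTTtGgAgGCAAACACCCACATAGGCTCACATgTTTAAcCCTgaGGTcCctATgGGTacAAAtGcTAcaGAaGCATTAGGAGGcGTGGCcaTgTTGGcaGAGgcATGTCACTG

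None of the promoters of these 7 genes held TTCNNNGAA (the letters STAT5 prefers), ACANNNTGT (a steroid receptor palindrome) or AAAGTCCA (the core of an HNF4 element) within these 250 bases on either strand. Of 32851 RefSeq promoters, 7.02%, 5.84% and 1.01% held them in the same window.

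**Figure D1:**
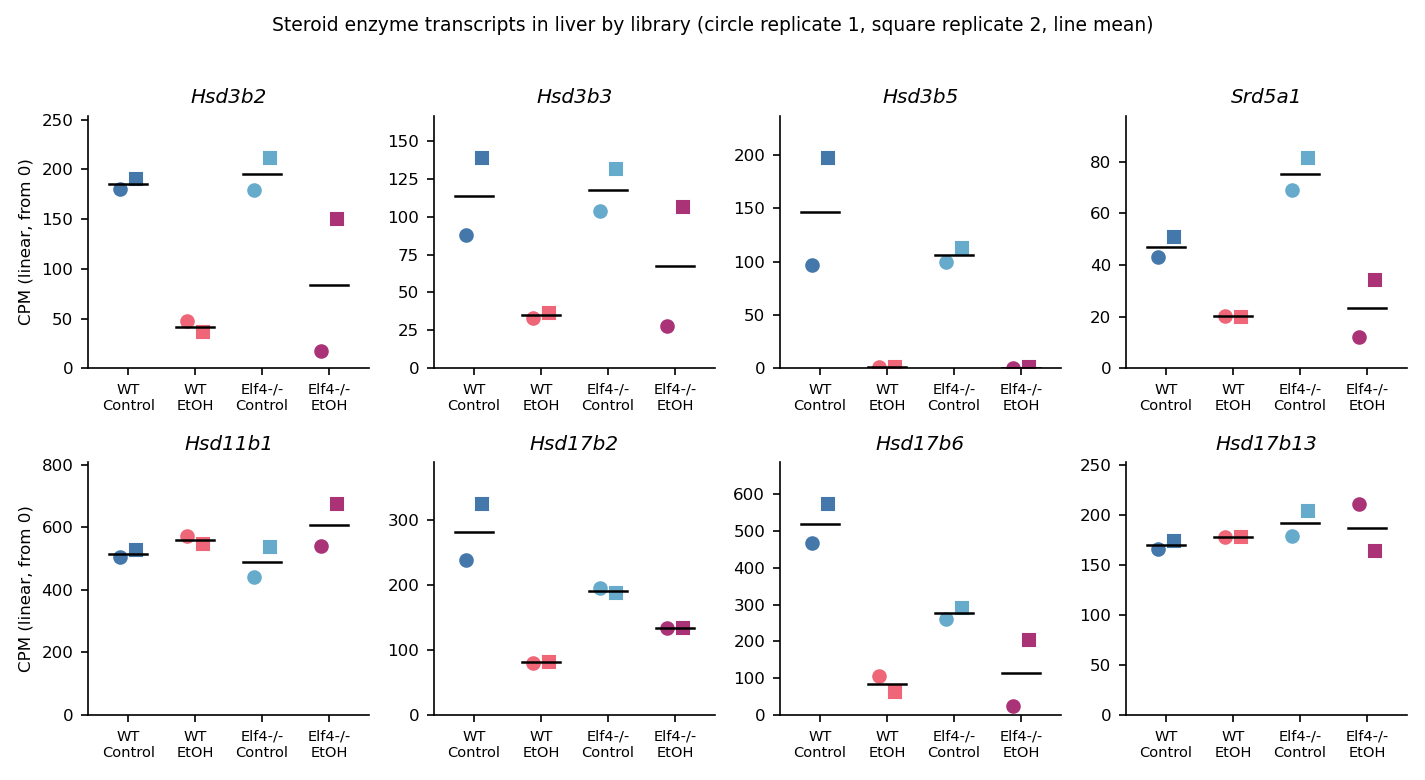
Level of each of the 8 transcripts (vertical axis, CPM, linear from 0) in the 8 libraries by group, with circles for replicate 1, squares for replicate 2 and a line at the group mean. *Hsd3b5* is near 0 in all 4 EtOH libraries. *Hsd11b1* lies slightly higher in every EtOH library than in every control library, and *Hsd17b13* overlaps between the diets. The squares and circles of *Elf4-/-*-EtOH lie far apart for *Hsd3b2*, *Hsd3b3*, *Srd5a1* and *Hsd17b6*.

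Levels were compared between genes per kilobase of annotated exons. In WT-Control the order ran from *Hsd17b6* (296 and 363 CPM per kilobase) through *Hsd17b2* (123 and 168), *Hsd11b1* (119 and 124), *Hsd3b5* (62.4 and 127), *Hsd17b13* (76.8 and 80.6) and *Hsd3b2* (48.8 and 51.6) to *Hsd3b3* (13.8 and 21.7) and *Srd5a1* (14.9 and 17.5). The values of *Hsd17b2* and *Hsd11b1* overlapped, as did those of *Hsd11b1* and *Hsd3b5*, of *Hsd3b5* and *Hsd17b13*, and of *Hsd3b3* and *Srd5a1*, so those neighbours did not differ beyond their spread. In WT-EtOH *Hsd11b1* (135 and 129 CPM per kilobase) and *Hsd17b13* (82.5 and 82.3) stood above the other members, and *Hsd3b5* (0.816 and 0.723) was the lowest. The order in *Elf4-/-*-EtOH likewise began with *Hsd11b1* (127 and 158 CPM per kilobase) and ended with *Hsd3b5* (0 and 1.03), and the levels of *Hsd17b6* (15.6 and 129) and *Hsd3b2* (4.62 and 40.7) differed widely between its libraries.

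Which members responded to alcohol in WT mice was read by setting WT-EtOH against WT-Control. Of the 8 members, 5 fell and none rose (quasi-likelihood test of edgeR, p-values adjusted by Benjamini-Hochberg across 13993 genes), while 10.8% of all genes tested were called lower. The median log2 fold change of the 8 was −1.74, against 0.01 for all genes. Every member called was lower in both EtOH libraries than in both control libraries. Members not called were separated too, *Hsd3b2* lower and *Hsd11b1* and *Hsd17b13* higher. The share of all genes separated in WT was not counted, so the separation adds nothing to the calls.

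*Hsd3b5*, a male-biased enzyme that reduces 3-keto steroids, showed the widest gap. Its level was 96.6 and 197 CPM in WT-Control against 1.26 and 1.12 CPM in WT-EtOH, which are 518 and 1072 against 10 and 11 counts. The groups were far apart, with a log2 fold change of −6.93 ± 0.64 (SE), a 122-fold difference with a 95% interval from 45.7-fold to 326-fold (edgeR adjusted p = 0.000641).

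The other *Hsd3b* members, dehydrogenase-isomerases of the type that turns precursors into active steroids, fell less or missed the threshold. *Hsd3b3* measured 88.0 and 139 CPM in WT-Control against 33.5 and 36.5 CPM in WT-EtOH, or −1.69 ± 0.48 on the log2 scale (SE, edgeR adjusted p = 0.0354). *Hsd3b2* measured 180 and 191 CPM in WT-Control against 47.7 and 36.1 CPM in WT-EtOH. Its groups did not overlap either, but the log2 fold change of −2.15 ± 0.67 (SE) did not pass (edgeR adjusted p = 0.0524).

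*Srd5a1*, a 5α-reductase, lies on chromosome 13 at chr13:69573449-69611442 on the minus strand and shares 476 exonic bases with *Gm17108* on the same strand. It went from 43.3 and 50.8 CPM in WT-Control to 20.4 and 19.8 CPM in WT-EtOH. The log2 fold change was −1.23 ± 0.36 (SE, edgeR adjusted p = 0.0402), the smallest of the 5 falls.

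Both *Hsd17b2* and *Hsd17b6* fell. *Hsd17b2* (chr8:117701904-117759027, plus strand), which oxidises estradiol and testosterone to weaker steroids, had 238 and 323 CPM in WT-Control against 79.8 and 82.1 CPM in WT-EtOH. The fall was 3.46-fold, or −1.79 ± 0.21 on the log2 scale (SE, edgeR adjusted p = 0.00181). *Hsd17b6* (chr10:127990936-128007611, minus strand), an enzyme of androgen and retinol metabolism, had 466 and 572 CPM in WT-Control against 107 and 62.2 CPM in WT-EtOH. This is −2.62 ± 0.68 on the log2 scale (SE, edgeR adjusted p = 0.0294), with a wider interval than for *Hsd17b2*.

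*Hsd11b1* (chr1:193221634-193264075, minus strand) and *Hsd17b13* (chr5:103955440-103977410, minus strand), a protein of lipid droplets, were not called changed. *Hsd11b1* had 504 and 528 CPM in WT-Control against 573 and 548 CPM in WT-EtOH, a log2 fold change of 0.12 with a 95% interval from −0.39 to 0.63 (edgeR adjusted p = 0.742). *Hsd17b13* had 166 and 174 CPM in WT-Control and 178 in both WT-EtOH libraries, a log2 fold change of 0.07 with an interval from −0.40 to 0.53 (edgeR adjusted p = 0.845). These intervals leave out the falls fitted for the other 6 genes.

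The WT calls other than *Hsd3b5* and *Hsd17b2* changed with the libraries fitted. Leaving out any 1 of the 4 WT libraries or of the 2 *Elf4-/-*-Control libraries left 2 of the 5 calls, *Hsd3b5* and *Hsd17b2*. Leaving out either *Elf4-/-*-EtOH library added *Hsd3b2* to the calls, and more of all genes were called lower too. A fit of the 4 WT libraries alone and a fit with no filter on low counts gave 6 calls each. *Hsd3b2* was among them (edgeR adjusted p = 0.000655 and 0.0309). Those 2 fits called 1755 and 1343 of all genes lower, against 1507 in the main fit. Scaling by library totals in place of TMM moved the median of all genes by 0.43 on the log2 scale and left 3 calls, *Hsd3b5*, *Hsd17b2* and *Hsd17b6*. Under that scaling 3422 genes were called higher and 634 lower, against 1518 and 1507 under TMM.

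**Figure D2:**
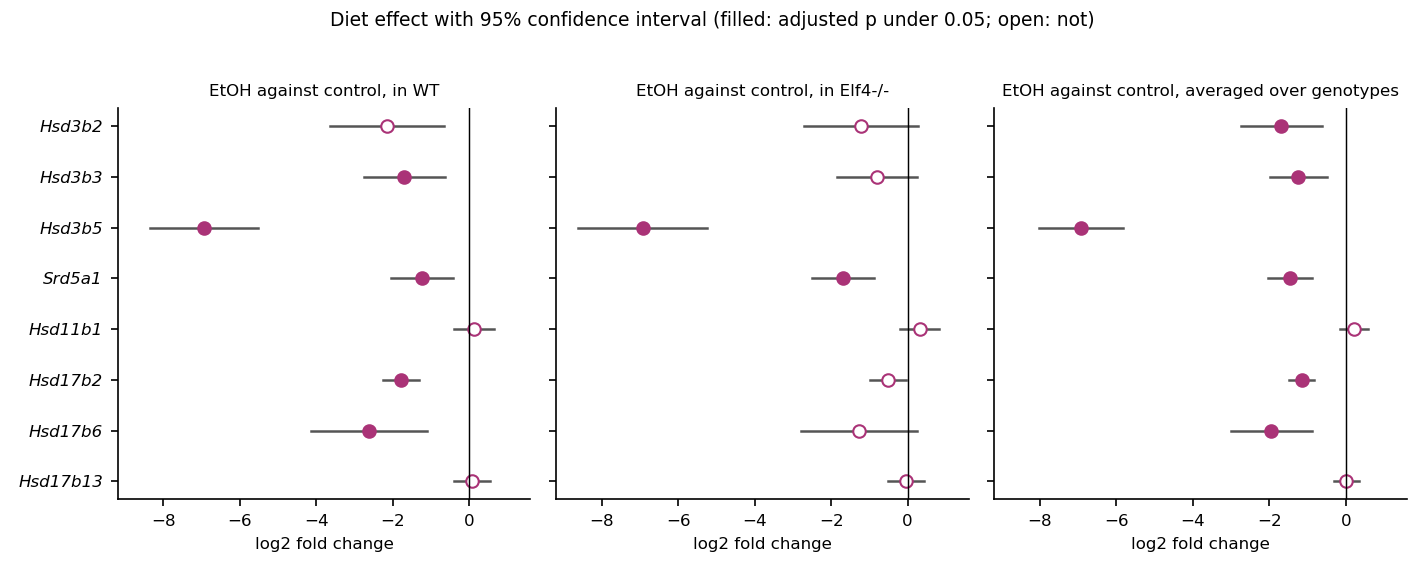
Log2 fold change of EtOH against control diet (horizontal axis) for each of the 8 genes in WT, in *Elf4-/-* and averaged over both, with 95% confidence intervals as lines and filled points where the edgeR adjusted p was under 0.05. *Hsd3b5* lies near −6.9 in every panel and *Hsd11b1* and *Hsd17b13* lie near 0.

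In *Elf4-/-* livers, EtOH against control diet gave 2 calls among the 8 members, both lower, where 1.18% of all genes were called lower in edgeR. *Hsd3b5* measured 99.3 and 112 CPM in *Elf4-/-*-Control and 0 and 1.59 CPM in *Elf4-/-*-EtOH (0 and 12 counts). A count of 0 in that library allows up to 0.478 CPM, from 3 counts and for counting error only. The log2 fold change was −6.92 ± 0.76 (SE, edgeR adjusted p = 0.00197). *Srd5a1* measured 69.2 and 81.4 CPM in *Elf4-/-*-Control and 12.3 and 34.1 CPM in *Elf4-/-*-EtOH, or −1.69 ± 0.36 on the log2 scale (SE, edgeR adjusted p = 0.0426). Its call was lost when any 1 of the 4 WT libraries or of the 2 *Elf4-/-*-Control libraries was left out, and *Hsd3b5* was called in each of those fits.

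The *Elf4-/-*-EtOH libraries disagreed about 4 members. *Hsd3b2* had 17.1 CPM in replicate 1 and 150 CPM in replicate 2, an 8.82-fold gap, against 180 and 212 CPM in *Elf4-/-*-Control. *Hsd17b6* had 24.5 and 204 CPM, an 8.30-fold gap, against 262 and 290 CPM. *Hsd3b3* had 28.2 and 107 CPM, a 3.78-fold gap, against 104 and 131 CPM, so its groups overlapped. *Srd5a1* differed by 2.78-fold. Replicate 1 was the lower library for all 4 of these genes. Among the 9398 genes that averaged 50 or more counts, replicate 2 was at least 4-fold higher in 0.777% of genes. Of these 4 members, *Hsd3b2* and *Hsd17b6* reached that size and *Hsd3b3* and *Srd5a1* did not. In the other groups the largest ratio between replicates of a member was 2.04, for *Hsd3b5* in WT-Control. *Hsd17b2* (133 CPM in both libraries), *Hsd11b1* (541 and 673 CPM) and *Hsd17b13* (210 and 164 CPM) showed ratios of at most 1.28 in *Elf4-/-*-EtOH.

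The diet effect in *Elf4-/-* therefore depended on which EtOH library was kept. The log2 fold change of *Hsd3b2* was −1.22 ± 0.67 (SE, edgeR adjusted p = 0.326) with both, −0.38 without replicate 1 and −3.54 without replicate 2. *Hsd17b6* read −1.27 ± 0.68 (SE, edgeR adjusted p = 0.316), then −0.44 and −3.51 without replicate 1 and 2. *Hsd3b3* read −0.80 ± 0.47 (SE, edgeR adjusted p = 0.362), and −0.14 and −2.07 without replicate 1 and 2. *Srd5a1* read −1.14 and −2.63 without replicate 1 and 2. *Hsd3b5* read −6.04 without replicate 1 and was at least 221-fold lower without replicate 2, against 3 counts. Each fit without a replicate had 1 *Elf4-/-*-EtOH library and cannot measure the spread of that group, so effect sizes only are given.

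*Hsd17b2* fell short of the threshold in *Elf4-/-* without depending on either library. It had 195 and 188 CPM in *Elf4-/-*-Control and 133 CPM in both *Elf4-/-*-EtOH libraries, or −0.52 ± 0.21 on the log2 scale (SE, edgeR adjusted p = 0.194). *Hsd11b1* went from 441 and 537 to 541 and 673 CPM, a log2 fold change of 0.31 with a 95% interval from −0.20 to 0.83 (edgeR adjusted p = 0.467). *Hsd17b13* went from 179 and 204 to 210 and 164 CPM, a value of −0.03 with an interval from −0.50 to 0.43 (edgeR adjusted p = 0.942).

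**Figure D3:**
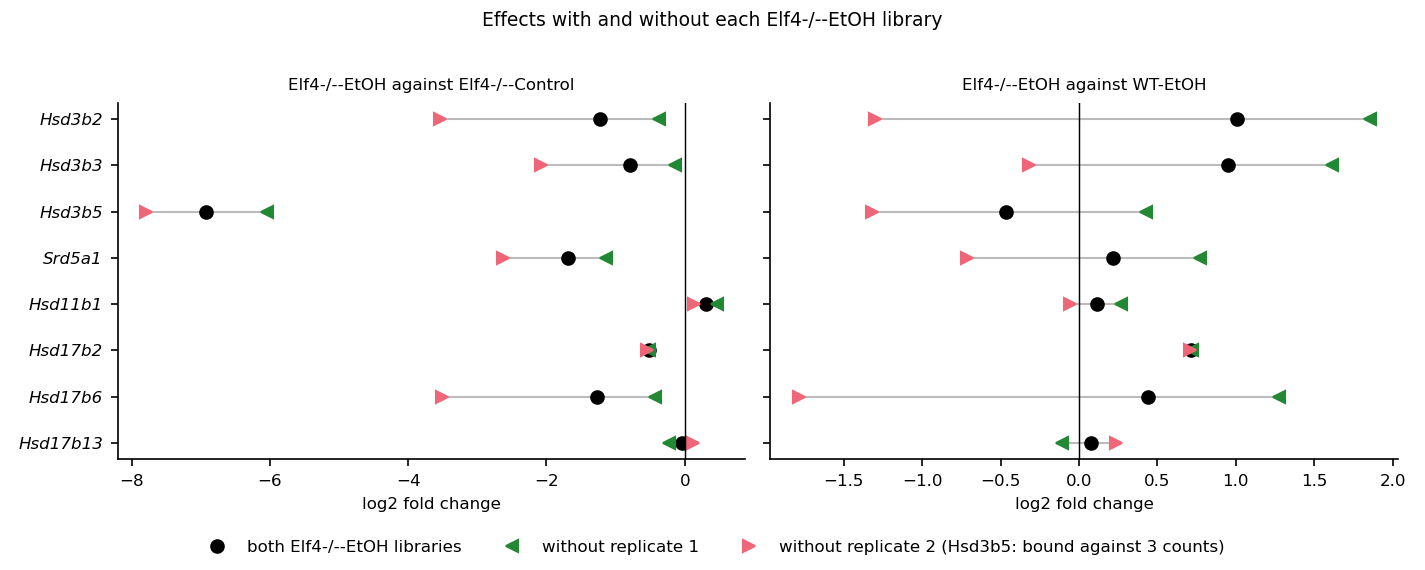
Log2 fold change (horizontal axis) of *Elf4-/-*-EtOH against *Elf4-/-*-Control (left) and against WT-EtOH (right) for the 8 genes, with both *Elf4-/-*-EtOH libraries (circles), without replicate 1 (left-pointing triangles) and without replicate 2 (right-pointing triangles, a bound for *Hsd3b5*). Against WT-EtOH, *Hsd3b2* and *Hsd17b6* lie above 0 without replicate 1 and below 0 without replicate 2.

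Averaged over both genotypes, 6 of the 8 members were lower under EtOH, where 13.8% of all genes were called lower in edgeR. The log2 fold changes were −6.93 ± 0.50 for *Hsd3b5* (SE, edgeR adjusted p = 6.11e-05), −1.95 ± 0.48 for *Hsd17b6* (adjusted p = 0.0173) and −1.68 ± 0.47 for *Hsd3b2* (adjusted p = 0.0280). They were −1.46 ± 0.26 for *Srd5a1* (SE, edgeR adjusted p = 0.00349), −1.25 ± 0.34 for *Hsd3b3* (adjusted p = 0.0231) and −1.16 ± 0.15 for *Hsd17b2* (adjusted p = 0.000987). In 5 of the 8 genes every EtOH library lay below every control library, which held for 14.0% of all genes tested. *Hsd3b3* missed this through *Elf4-/-*-EtOH replicate 2 alone, at 107 CPM against a lowest control value of 88.0 CPM. *Hsd11b1* was separated the other way, with 541 to 673 CPM in the EtOH libraries and 441 to 537 CPM in the control libraries. Its averaged log2 fold change of 0.22 was not called (edgeR adjusted p = 0.348). Without either *Elf4-/-*-EtOH library 6 members were called, although *Hsd3b5* has no fold change without replicate 2, where a single library with 0 counts was left. With DESeq2, *Hsd3b2* lost its call (adjusted p = 0.0501), and 3 calls were left in edgeR without WT-EtOH replicate 2 or without *Elf4-/-*-Control replicate 2.

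The diet and genotype contrasts draw on the same 8 libraries and share control groups, so they are not independent of each other. Whether intestinal loss of *Elf4* altered these transcripts was asked under each diet. No member was called between genotypes under EtOH (0.143% of all genes called) or under control diet (0.0143%), and none for the interaction of genotype and diet (0% of genes called). At an unadjusted p under 0.05, 1 member passed in each of these 3 contrasts, *Hsd17b2* each time, and 1470, 1023 and 1411 of the 13993 genes did so in edgeR. DESeq2 called 0, 0 and 1 members, and it called 180, 79 and 111 of all genes, where edgeR called 20, 2 and 0.

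*Hsd17b2* was higher in both *Elf4-/-*-EtOH libraries (133 CPM) than in both WT-EtOH libraries (79.8 and 82.1 CPM). Under control diet it was lower in both *Elf4-/-* libraries (195 and 188 CPM) than in both WT libraries (238 and 323 CPM). How many of all genes were separated in this way between genotypes was not counted. The log2 fold change of *Elf4-/-* against WT was 0.72 ± 0.21 (SE, edgeR adjusted p = 0.275) with EtOH and −0.55 ± 0.21 (SE, adjusted p = 0.630) without it. The interaction was 1.27 ± 0.30 (SE, edgeR adjusted p = 0.268), with a range from 1.03 to 1.48 when each library was left out and a value of 0.81 under scaling by library totals, and DESeq2 called it (adjusted p = 0.0243).

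For the remaining members the genotype difference under EtOH took its sign from single libraries. *Hsd3b2* read 1.005 ± 0.67 (SE) on the log2 scale, *Hsd3b3* 0.95 ± 0.48 and *Hsd17b6* 0.44 ± 0.68 (edgeR adjusted p = 0.664, 0.531 and 0.878). Once replicate 1 of *Elf4-/-*-EtOH was left out they were 1.85, 1.61 and 1.28, and without replicate 2 they were −1.30, −0.32 and −1.79. Each of these fits had 1 *Elf4-/-*-EtOH library and cannot measure the spread of that group, so effect sizes only are given. Under control diet *Srd5a1* was higher in both *Elf4-/-* libraries (69.2 and 81.4 CPM) than in both WT libraries (43.3 and 50.8 CPM), and *Hsd17b6* lower (262 and 290 against 466 and 572 CPM). Their log2 fold changes of 0.68 with an interval from −0.11 to 1.47 and of −0.91 with an interval from −2.42 to 0.59 did not pass (edgeR adjusted p = 0.746 and 0.842).

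Other genes of steroid metabolism moved in both directions with the diet. Of 47 further steroid enzymes, receptors and carriers, 30 were in the table and 25 were tested, of which 9 rose and 4 fell in the average over genotypes (edgeR), with a median log2 fold change of 0.31. Of all genes tested, 14.1% were called higher and 13.8% lower in this contrast. The aldo-keto reductases of family 1C, which reduce keto groups of steroids, had 5 of 6 tested genes higher. *Akr1c13* had a log2 fold change of 2.11 and *Akr1c19* of 1.95 (edgeR adjusted p = 0.000110 and 0.000138), and *Akr1c12* and *Akr1c20* of 1.13 and 1.12 (adjusted p = 0.00383 and 0.00157). These are closely related genes of 1 cluster, and reads shared between them could have been divided in the counting.

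Among the other 17β-hydroxysteroid dehydrogenases, 4 of 6 tested genes were higher and 1 lower in the average over genotypes (edgeR, against the same shares of all genes). *Hsd17b11*, a lipid droplet protein and close relative of *Hsd17b13*, had 41.4 and 73.6 CPM in WT-Control against 232 and 236 CPM in WT-EtOH, and an averaged log2 fold change of 1.58 (edgeR adjusted p = 0.000721). *Hsd17b12*, an enzyme of fatty acid elongation, and *Hsd17b7*, an enzyme of cholesterol synthesis, had averaged values of 1.10 and 1.04 (edgeR adjusted p = 0.00209 and 0.00295). *Hsd17b1* fell by 1.81 on the log2 scale (edgeR adjusted p = 0.0480) but had at most 15 counts in a library. Of the remaining lists, *Cyp7b1*, an oxysterol hydroxylase that is also counted as male-biased below, had an averaged value of −1.06 and *Sult2a8*, a sulfotransferase, of −1.03 (edgeR adjusted p = 0.0308 and 0.0428). The bile acid enzyme *Hsd3b7* was not called (0.21, edgeR adjusted p = 0.620).

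*Srd5a2*, the second 5α-reductase, fell as well but at very low counts. WT-Control held 9 and 8 counts and WT-EtOH 0 and 2 (edgeR adjusted p = 0.0269). *H6pd*, which supplies the cofactor of *Hsd11b1*, had a log2 fold change of 0.20 in WT and −0.18 in *Elf4-/-* (edgeR adjusted p = 0.519 and 0.653). None of the 4 receptor genes tested was called in the 6 contrasts with all libraries (edgeR, lowest adjusted p = 0.234, *Esr1* between genotypes under EtOH), and 1 was called lower in the diet average without *Elf4-/-*-EtOH replicate 2. The averaged diet value was −0.24 for *Nr3c2*, the mineralocorticoid receptor, −0.23 for *Nr3c1*, the glucocorticoid receptor, and −0.01 for *Esr1*, an estrogen receptor.

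Genes with a known sex bias in mouse liver were read beside the members, because *Hsd3b5* is one of them. Of 16 tested male-biased genes (*Hsd3b5* left out of the list), 14 were lower and none higher in the diet average, with a median log2 fold change of −2.18 against 0.01 for all genes (edgeR). Of all genes, 13.8% were called lower and 14.1% higher in that average. The largest falls were those of *Mup7*, a major urinary protein, at −7.46, and *Selenbp2*, a selenium-binding protein, at −5.99 (edgeR adjusted p = 0.000287 and 0.000208). Of 10 tested female-biased genes, 8 were higher and none lower, with a median of 5.25, or 4.33 with 3 genes near 0 under a diet set to a floor of 3 counts per library. *Cyp2b9* and *Cyp2b13*, cytochromes P450 of female liver, had the largest values. *Cyp2b9* went from at most 1.33 CPM in every control library to at least 161 CPM in every EtOH library, a log2 fold change of 8.07 (edgeR adjusted p = 2.00e-05). *Cyp2b13* had at most 2 counts in a control library and 97 and 494 counts in WT-EtOH and 611 and 140 in *Elf4-/-*-EtOH. In *Elf4-/-* alone, 8 male-biased genes were lower and 5 female-biased genes higher (edgeR), where 165 of all 13993 genes were called lower and 239 higher. The list medians there were −2.18 and 4.80 on the log2 scale. They were −1.80 and 3.59 without *Elf4-/-*-EtOH replicate 1, and −4.41 and 5.38 without replicate 2.

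Of the genes of growth hormone signalling, which sets the sex pattern of liver genes, 2 of 11 were higher and 1 lower in the diet average in edgeR. Of all genes 28.0% were called in either direction. The median of the list was −0.19 on the log2 scale, −0.20 without *Elf4-/-*-EtOH replicate 1 and −0.21 without replicate 2. *Bcl6*, a repressor that opposes STAT5, went from 218 and 185 CPM in WT-Control to 23.6 and 14.0 CPM in WT-EtOH and fell by 2.75 on the log2 scale in the average (edgeR adjusted p = 0.000348). *Cish*, a target of growth hormone and a feedback inhibitor, had an averaged value of 2.35 (edgeR adjusted p = 0.0176) but spread from 4.62 to 41.5 CPM between the *Elf4-/-*-EtOH libraries.

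Genes that glucocorticoids induce were read beside *Hsd11b1*. In the diet average 28.0% of all genes were called in either direction (edgeR). Of the 12 tested, 1 was higher and 1 lower, with a median of 0.30. This turned with the *Elf4-/-*-EtOH libraries, since the median was −0.65 without replicate 1 and 0.66 without replicate 2. *Sgk1*, a kinase, had a log2 fold change of 1.28 and *Pck1*, a gluconeogenic enzyme, of −1.27 (edgeR adjusted p = 0.0161 and 0.0222). The metallothionein genes *Mt2* and *Mt1* had larger values, 3.17 and 2.82, that did not pass (edgeR adjusted p = 0.0646 and 0.0539). Of 10 tested lipid droplet genes, read beside *Hsd17b13*, 5 were higher and 1 lower, against 14.1% and 13.8% of all genes. *Plin2* and *Plin4*, droplet coat proteins, had averaged values of 2.54 and 2.32 (edgeR adjusted p = 0.000138 and 0.0150), and *Hsd17b11* is counted in this list too.

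**Figure D4:**
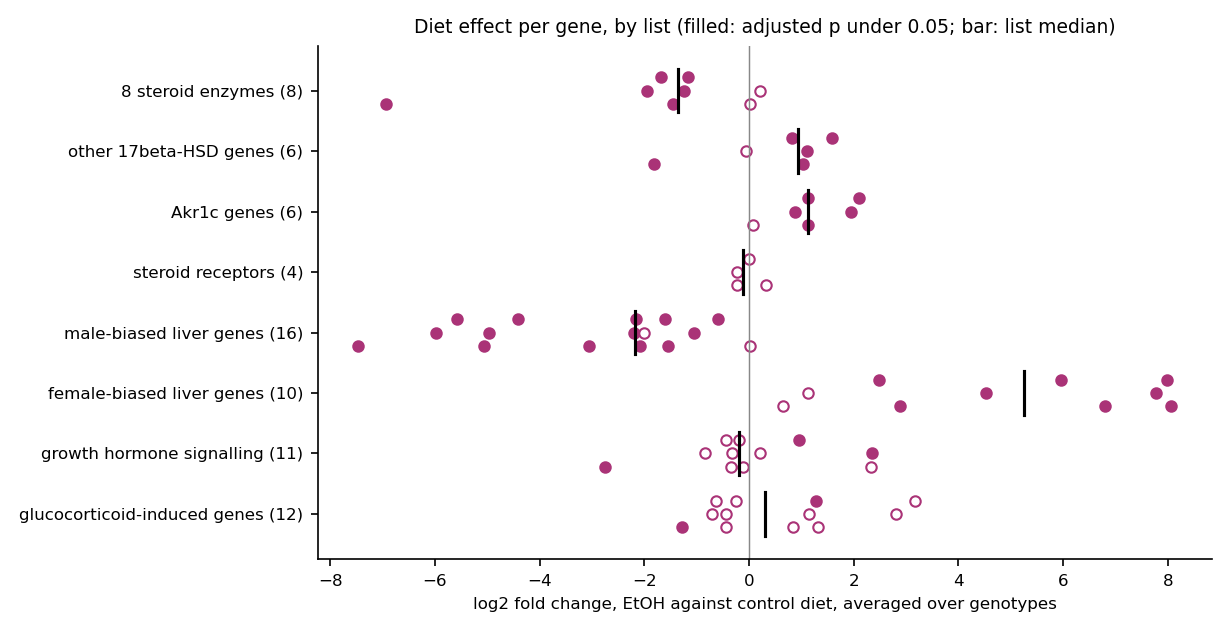
Log2 fold change of EtOH against control diet averaged over genotypes (horizontal axis) for each tested gene of 8 lists, 1 point per gene (filled where the edgeR adjusted p was under 0.05), with a bar at each list's median. The 8 steroid enzymes (median −1.35) and the male-biased genes (median −2.18) lie mostly below 0, and the *Akr1c* genes (median 1.13) and female-biased genes (median 5.25) above.

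The 2 genes most like each member were found by root mean square distance over the 8 libraries, on log2 CPM centred per gene, among 9390 other genes. *Hsd3b5* lay nearest to *Mup21* and *Mup7*, both male-biased urinary protein genes, at 0.731 and 0.756. *Hsd3b2* lay nearest to *Foxq1* (0.219) and *Gm32461* (0.316), *Hsd17b6* to *Nox4* (0.294) and *C9* (0.324), *Hsd3b3* to *Apol7a* (0.224) and *Nudt7* (0.254), and *Srd5a1* to *Bdh2* (0.242) and *Kcp* (0.242). *Hsd17b2* lay nearest to *Camta2* (0.135) and *Cabin1* (0.141), *Hsd11b1* to *Wdr1* (0.0594) and *Fam118b* (0.0617), and *Hsd17b13* to *Wasl* (0.0637) and *Cap1* (0.0689). Among the members, the closest pairs were *Hsd11b1* with *Hsd17b13* (0.219), *Hsd3b3* with *Srd5a1* (0.355) and *Hsd3b2* with *Hsd17b6* (0.424), and *Hsd3b5* was at least 2.33 from each of the others.

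Summed levels of cell type markers moved with the diet too. The summed level of 6 hepatocyte markers ran from 54854 to 76758 CPM in WT-Control and from 32795 to 40385 CPM in WT-EtOH, and from 64873 to 72581 and 41212 to 54556 CPM in the *Elf4-/-* groups. Only 1 of these 6 markers was called lower in the diet average and none higher (edgeR), where 13.8% of all genes were called lower. *Alb* alone measured 21676 to 42753 CPM over all libraries. The sums of 6 Kupffer, 5 sinusoidal endothelial and 5 stellate cell markers were 151 to 199, 46.4 to 92.5 and 26.9 to 67.3 CPM in WT-Control and 505 to 558, 240 to 291 and 247 to 326 CPM in WT-EtOH. In *Elf4-/-* these sums were 139 to 142, 134 to 137 and 90.1 to 119 CPM under control diet and 188 to 199, 123 to 183 and 195 to 315 CPM under EtOH. The diet average called 5 of 6 Kupffer, 4 of 5 endothelial and 4 of 5 stellate markers higher and none lower (edgeR). Over all genes 14.1% were called higher. No marker of these 4 lists was at 0 in all libraries, and their part in the members' falls was not tested. Fewer cells of a type and less RNA per cell cannot be told apart in whole liver. Bile duct markers summed to 67.3 to 182 CPM over all libraries, mostly from *Spp1* (57.9 to 173 CPM). *Krt19*, *Krt7*, *Epcam* and *Sox9* measured at most 2.07, 1.86, 3.77 and 5.89 CPM. Of 5 intestinal epithelial markers, 3 were in the table and summed to 165 to 255 CPM. That sum came from *Fabp2* (33.6 to 111 CPM) and *Lgals4* (92.6 to 219 CPM), while *Vil1* measured at most 1.95 CPM. Neutrophil markers summed to 0.922 to 11.3 CPM, and the pancreatic marker *Cela1* measured 2.75 to 9.10 CPM. Of 7 adrenal cortex markers, where *Hsd3b* enzymes serve steroid synthesis, *Star* and *Cyp21a1* were in the table, with a summed level of 1.84 to 6.46 CPM over all libraries. Genes of the mitochondrial genome took 10.8% to 33.7% of counts per library, with the largest gap between the WT groups.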

How the data were processed

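Liver RNA was extracted with Trizol and sequenced on an Illumina HiSeq instrument in paired-end mode. Per the study's methods and the submitters' processing notes, the authors mapped reads to mm10 with HISAT2, handled alignments with SAMtools, counted reads per gene with HTSeq and tested with DESeq2. The values deposited by the authors are raw counts per gene symbol, not normalised. Versions, annotation, strand setting and treatment of multi-mapping reads are not given in the sources used here, and 968 empty lines of the table held no counts.

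Counts were analysed in edgeR 4.0.16 (R 4.3.3, limma 3.58.1) with TMM factors, filterByExpr by group and the quasi-likelihood test, in 1 fit of 8 libraries and 4 groups. P-values were adjusted by Benjamini-Hochberg over 13993 genes, with a threshold of 0.05. The common biological coefficient of variation was 22.7%. Standard errors and 95% intervals came from the same fit. A count of 0 was given a limit of 3 counts, and limits cover counting error only. The step was tested on simulated data.

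The 8 genes and the gene lists were chosen with earlier results of these data known. Outside the 8, the text names steroid genes past the threshold (at most 6 per contrast, by size), the 2 largest changes past the threshold in the diet average of each other list, and the 2 genes most like each member among genes averaging 50 or more counts. *Nr3c1*, *Nr3c2*, *Esr1*, *H6pd*, *Hsd3b7*, *Cyp7b1*, *Sult2a8*, *Mt1* and *Mt2* were named outside this rule, after their values were seen, as were the genes of the closing observations. Alternatives were DESeq2 1.42.0 (Wald test), other scalings and filters, a replicate block, fits of the compared libraries only, *Hsd3b* counts summed, and leaving out each library. Replicates differed by more than sampling noise in every group, with a chi-square per degree of freedom of 16.2 to 72.8. The value of 1 listed gene is not reported here.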

Additional observations from a re-analysis of the deposited data

Results flagged for a closer look

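For *Hsd17b2*, both *Elf4-/-* libraries lay below both WT libraries under control diet and above them under EtOH. Under control diet *Srd5a1*, *Hsd17b6* and *Hsd17b13* did not overlap between genotypes either. The share of all genes separated in this way was not counted, so the separation is descriptive. The interaction of genotype and diet was 1.27 ± 0.30 on the log2 scale (SE, unadjusted p = 0.00176 and adjusted p = 0.268 in edgeR), so it failed the correction over all genes. DESeq2 gave an adjusted p of 0.0243, in a contrast where it called 111 of all genes and edgeR called 0. Between replicates, log2 levels over 9398 genes differed with an SD of 0.681 in *Elf4-/-*-EtOH and of 0.354 to 0.504 elsewhere.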

How the results depend on the processing

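The number of members called for diet in WT (5) was 3 with library totals alone and ranged from 2 to 6 when each library was left out. For diet in *Elf4-/-* (2) it was 1 with only the libraries compared, with a range from 1 to 5. Averaged over genotypes (6) it was 5 by DESeq2 with a range from 3 to 6, for the genotype contrast under EtOH (0) it was 0 to 2, and for the interaction (0) it was 0 to 2, with 1 by DESeq2. Under control diet no alternative gave a genotype call. With 2 libraries a group, a member without a call is not shown to be unchanged.

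Replicate numbers did not pair the libraries (correlations of same-numbered deviations from −0.134 to 0.114). With the replicate block 5, 2 and 6 members were called in the 3 diet contrasts and 0 in the others. The crossed replicate block in WT, chosen after seeing the data, called 6 members and 2919 genes.

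Of the members' single values under the alternatives, 629 kept direction and call, 41 lost the call, 13 gained it and 37 changed sign. With library totals alone, genotype under EtOH read −0.11 for *Hsd11b1* and −0.17 for *Hsd17b13*, genotype under control diet 0.15 for *Hsd11b1*, and the interaction −0.43 for *Hsd3b5* and −0.26 for *Hsd11b1*. This scaling moved the median of all genes by −0.23, 0.23 and −0.46 in these contrasts and by 0.20 in the diet average, where 2984 genes were called higher and 1057 lower against 1978 and 1938 under TMM. With the *Hsd3b* counts summed, genotype under EtOH was 0.96 and genotype under control diet −0.090, and diet was −2.51 in WT and −1.46 in *Elf4-/-* (edgeR adjusted p = 0.0184 and 0.192). The *Hsd3b5* interaction, 0.01, read −0.027 with no filter, −0.042 with a mean of at least 50 counts, −0.16 with the replicate block and −0.077 by DESeq2.

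With each library left out, the ranges that crossed 0 were as follows. For *Hsd17b13*, diet in *Elf4-/-* ran from −0.22 to 0.12 and the diet average from −0.080 to 0.087. Genotype under EtOH ran from −1.30 to 1.85 for *Hsd3b2*, −0.32 to 1.61 for *Hsd3b3*, −1.32 to 0.43 for *Hsd3b5*, −0.71 to 0.77 for *Srd5a1*, −0.057 to 0.27 for *Hsd11b1*, −1.79 to 1.28 for *Hsd17b6* and −0.11 to 0.24 for *Hsd17b13*. The −1.32 of *Hsd3b5* is a limit against 3 counts and not a fitted value, so its range may reach lower. Genotype under control diet ran from −0.041 to 0.20 for *Hsd3b2*, −0.24 to 0.42 for *Hsd3b3*, −0.89 to 0.14 for *Hsd3b5* and −0.22 to 0.064 for *Hsd11b1*. The interaction ran from −1.38 to 1.77 for *Hsd3b2*, −0.37 to 1.56 for *Hsd3b3*, −0.60 to 0.89 for *Hsd3b5*, −1.40 to 0.088 for *Srd5a1*, −0.88 to 2.19 for *Hsd17b6* and −0.29 to 0.056 for *Hsd17b13*. Without *Elf4-/-*-EtOH replicate 2 the *Hsd3b5* average and interaction have no fold change, since a single library with a count of 0 was left.

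Over all genes, diet in *Elf4-/-* (404 called) gave 240 with the replicate block, 40 with only the libraries compared, 811 by DESeq2 and 9 to 1683 with a library left out. Diet in WT (3025) fell to 626 and the average (3916) to 2115 with a library left out. Genotype under EtOH (20) gave 50 with no filter, 13 with a mean of at least 50 counts, 10 with the block, 0 with only the libraries compared, 180 by DESeq2 and 0 to 366 with a library left out. Genotype under control diet (2) gave 5 with library totals, 14, 0, 22, 79 and 0 to 53 (no filter, mean of at least 50 counts, only the libraries compared, DESeq2, a library left out). The interaction (0) gave 7 with no filter, 111 by DESeq2 and 0 to 139 with a library left out. The cause of these changes was not tested.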

Other observations

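Steroid genes outside the 8 also differed between the 2 *Elf4-/-*-EtOH libraries, and these were picked after their values were seen. *Cyp17a1*, the steroid 17α-hydroxylase and lyase, had 122 CPM (768 counts) in *Elf4-/-*-EtOH replicate 1 and 1.84 to 16.0 CPM in the other 7 libraries. It was not called in edgeR (log2 fold change of 4.40 between genotypes under EtOH, adjusted p = 0.251). *Sult1e1*, the estrogen sulfotransferase, had 25 counts in replicate 1 of *Elf4-/-*-EtOH and at most 5 in any other library. *Sult2a8*, a sulfotransferase of liver, had 300 CPM in replicate 1 and 1024 CPM in replicate 2, against 983 and 1264 CPM in *Elf4-/-*-Control. WT-EtOH had 547 and 401 CPM, so for this gene replicate 2 was the EtOH library that lay among the control values.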
